A study of Mus musculus with 23 samples.

Results

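The 38 genes described here encode structural proteins of the skeletal muscle sarcomere and its Z-disc. They were taken by gene symbol from a table of 12831 genes measured in mouse quadriceps, and all 38 symbols were found. Quadriceps RNA came from 3 mice without a tumor, 4 with KPC tumors and 4 with KPC IL6KO tumors. All were male C57BL/6J mice, 8 weeks old at surgery, with 1 library per mouse. KPC cells come from a pancreatic tumor of a male mouse on the C57BL/6 background that carried a Pdx1-Cre transgene, which acts in the pancreas. The KPC IL6KO line is a single-cell clone in which Il6 was disrupted with CRISPR/Cas9, and the KPC line is a clone transfected alongside it without guide RNA, so each tumor group rests on 1 clone. The cells were injected into the pancreas, no tumor mice had sham surgery, and no host mouse was edited, so that host cells could still make IL-6 in every group. All mice were killed when KPC mice showed overt wasting. The paper reports larger tumors in KPC than in KPC IL6KO mice, and no correlation between tumor mass and quadriceps mass. The part of tumor mass in the values below was not tested. The comparisons ask how transcripts of the contractile apparatus differ with a KPC tumor, and whether they differ when the tumor cells cannot make IL-6.

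The sarcomere is the repeating contractile unit of the myofibril. Myosin-based thick filaments, joined at the M-band, slide past actin-based thin filaments, which are anchored by α-actinin at the Z-disc, while titin runs from the Z-disc to the M-band and desmin filaments link neighboring Z-discs. Calcium binding to troponin moves tropomyosin along actin and opens the sites to which myosin binds. Many of these proteins exist as fast-fiber and slow-fiber isoforms from separate genes, and mouse quadriceps is made mostly of fast fibers. Muscle wasting is known to involve ordered loss of some of these proteins, whereas the values below are of RNA only.

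The total of the counts in a quadriceps library ranged from 19259763 to 74907810, and the lowest total belonged to a no tumor library. Levels are given in counts-per-million (CPM), with library sizes adjusted by TMM normalization. A level under 3 counts, which is 0.0462 to 0.154 CPM by library, could not be told apart from 0. Groups were compared with the edgeR quasi-likelihood test over all genes, and log2 FC is given ± its standard error. A gene was called when its FDR was 0.05 or lower and its FC, up or down, was 1.5 or more. Creatine kinase M (Ckm), a marker of skeletal muscle fibers, was at 27028, 25766 and 32610.2 CPM in no tumor, 27409, 29004, 23791 and 24145 CPM in KPC and 34213, 30811, 36275 and 35475 CPM in KPC IL6KO. Of the 7 markers of these fibers, 5 were not called in KPC relative to no tumor. The calsequestrin gene Casq1 was called down, with a log2 FC of -3.55 ± 0.38 (edgeR FDR 1.27e-05), and so was the parvalbumin gene Pvalb, at -1.49 ± 0.17 (edgeR FDR 1.53e-05). The heart muscle markers Myh6 and Tnnt2 did not exceed 4.95 CPM in any library. In KPC all 6 fibroblast markers and all 6 smooth muscle markers were called down. The fibroblast markers summed to 1215 to 1333 CPM in no tumor, 174 to 290.4 CPM in KPC and 628 to 991 CPM in KPC IL6KO. The smooth muscle markers summed to 164 to 208, 46 to 81.6 and 146 to 163 CPM in the same order. All 3 neutrophil markers measured were called up in KPC, with summed levels of 0.0512 to 0.294 CPM in no tumor and 3.93 to 20.6 CPM in KPC, and S100a9 and Retnlg were at 0 in no tumor 3. The part of other cells in the values below was not tested. In RNA from whole muscle fewer fibers of a type and less RNA per fiber cannot be told apart.

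In no tumor quadriceps the 38 genes together took 18.5, 18.1 and 20% of all counts. In KPC they took 13.2, 14.8, 12.2 and 14%, below every no tumor library, and in KPC IL6KO 20.4, 19.7, 19.8 and 19.7%. The mean share was 18.9% ± 1.01 (SD, n = 3) in no tumor, 13.6% ± 1.13 (SD, n = 4) in KPC and 19.9% ± 0.318 (SD, n = 4) in KPC IL6KO. Skeletal α-actin (Acta1) alone took 3.69, 3.62 and 4% of the counts in no tumor and 1.99, 2.31, 1.62 and 2.24% in KPC. Between 9 and 11 of the 20 genes with most counts in a KPC library belonged to the 38, against 11 in each library of the other groups. Divided by the summed exon length of each gene, the highest levels in no tumor were those of Acta1 (22953 ± 2455 CPM per kb, SD, n = 3), fast troponin T (Tnnt3, 13793 ± 1876) and fast troponin C (Tnnc2, 12769.6 ± 1018). The mean levels of Tnnt3 and Tnnc2 per kb differed by less than the SD of Tnnt3, whereas Acta1 stood above both. The lowest level per kb was that of slow troponin I (Tnni1, 2.69 ± 1.95). These levels take the full annotated exon length, while the sample records name a kit that captures chosen exons.

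**Figure D1:**
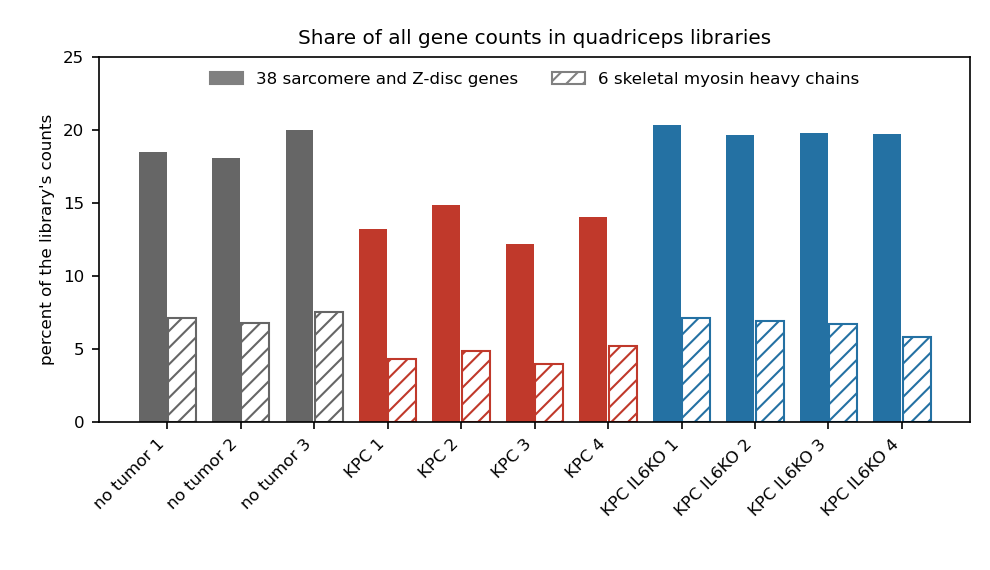
Percent of all counts in each quadriceps library (y axis) taken by the 38 sarcomere and Z-disc genes (filled bars) and by the 6 skeletal myosin heavy chain genes (hatched bars), for 3 no tumor, 4 KPC and 4 KPC IL6KO mice (x axis). The filled bars of KPC lie between 12.2% and 14.8%, below the 18.1% to 20.4% of the other libraries.

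Relative to no tumor, 5 of the 38 genes were called up in KPC quadriceps, 14 were called down and 19 were not called. The genes up were Flnc, Lmod2, Myom1, Des and Myot. Those down were Mybph, Actc1, Myoz3, Lmod3, Mylpf, Myl1, Ldb3, Tpm1, Tmod1, Tmod4, Tnnc2, Myoz1, Acta1 and Tpm2. Of all 12831 genes, 26.7% were called up and 29% down in this comparison. The share of the 38 called down was thus above that of all genes and the share called up below it, as a description without a test. The CPM values of the groups did not overlap for 19 of the 38 genes, against 65.3% of all genes. The median log2 FC was 0.01 over the 38 genes and -0.03 over all genes, with values from -6.34 to 2.85 among the 38. With library totals in place of TMM, the calls over all genes moved from 3428 up and 3719 down to 2622 up and 4499 down. The 38 genes gave the same calls except for Myot, whose log2 FC of 0.50 fell short of the FC limit.

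**Figure D2:**
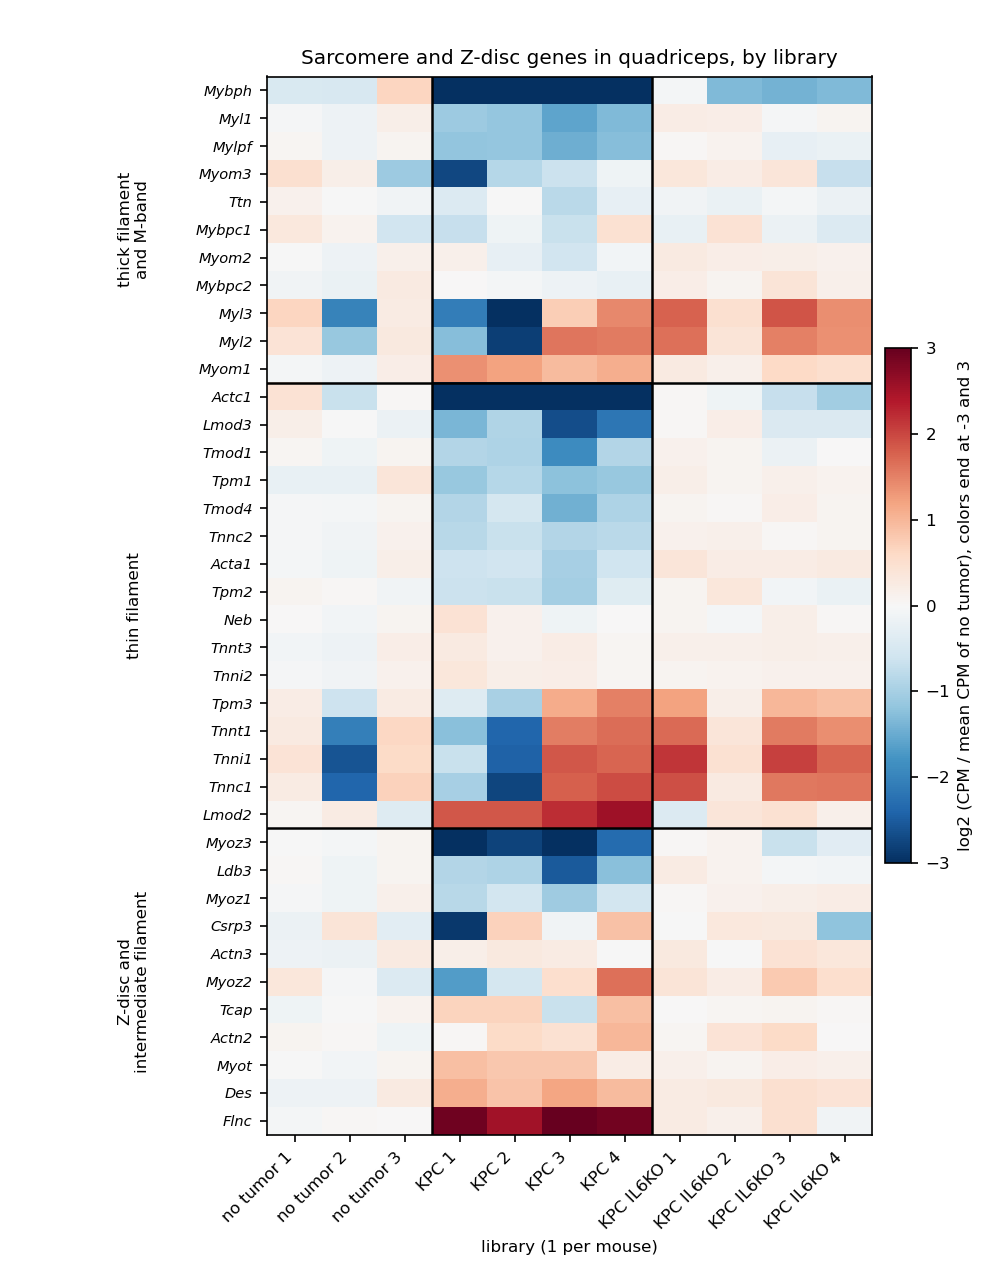
Level of each of the 38 genes (rows, by role and by log2 FC in KPC) in each quadriceps library (columns), as log2 of the CPM over the mean CPM of no tumor, with colors ending at -3 and 3. The rows from Mybph to Mylpf, Actc1 to Tpm2 and Myoz3 to Myoz1 are blue in the 4 KPC libraries, Myom1, Lmod2 and Flnc are red there, and the slow isoforms Myl2, Myl3, Tnnt1, Tnni1 and Tnnc1 differ between mice of the same group.

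Of the 11 thick filament and M-band genes, 3 were called down in KPC, 1 was called up and 7 were not called, with a median log2 FC of -0.18 beside the -0.03 of all genes. The shares over all genes were 29% down and 26.7% up. The largest fall of the 38 genes was in Mybph (chromosome 1, 134193448 to 134201232, + strand, GRCm38 as for all positions), which encodes myosin binding protein H, a protein of the thick filament. It was at 217, 214 and 463 CPM in no tumor, 3.73, 5.63, 2.32 and 2.97 CPM in KPC and 287, 119.8, 111 and 118 CPM in KPC IL6KO. Every KPC library was below 6 CPM and every other library above 110 CPM, an FC of 81.2 downward (log2 FC -6.34 ± 0.48, edgeR FDR 1.78e-06). Without KPC 2 and without no tumor 3, the extremes among the fits that left out 1 library, the log2 FC was -6.63 and -5.87. Exons of Mybph overlap those of Adora1 on the other strand. The strand setting of the counting is not given in the sources used here, and the same kind of overlap is annotated for Ttn, Neb, Tnnc2, Myl2, Myl3, Mybpc1, Mybpc2, Myom1, Tmod1 and Des.
For the members with the largest changes in each direction, the 250 bases before the RefSeq transcription start are shown in GRCm38.p6. They are read 5′ to 3′ on the strand of the gene and show which known muscle motifs lie there. Capitals mark a CArG box, a MEF2 site, the M-CAT box CATTCC or the TATA box TATAAA on either strand. In the window of Mybph (chr1:134193198-134193447, plus strand) an M-CAT box and a TATA box were found, both as the reverse complement:
Mybph: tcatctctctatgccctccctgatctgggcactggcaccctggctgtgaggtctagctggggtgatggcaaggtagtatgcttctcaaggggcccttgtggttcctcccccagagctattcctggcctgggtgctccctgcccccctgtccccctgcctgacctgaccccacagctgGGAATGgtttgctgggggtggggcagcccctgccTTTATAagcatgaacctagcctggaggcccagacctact

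Both light chains of fast myosin fell in KPC. The essential light chain gene Myl1 was at 9407, 8738 and 10948 CPM in no tumor, 4544, 4344, 3259 and 3890.4 CPM in KPC and 11361, 11185, 9541 and 10296 CPM in KPC IL6KO. The regulatory light chain gene Mylpf was at 10550.5, 9171 and 10816 CPM in no tumor, 4471, 4571, 3669.6 and 4199.7 CPM in KPC and 10402, 10909.7, 8579 and 8809 CPM in KPC IL6KO. For both genes every KPC library lay below every library of the other groups. The log2 FC in KPC was -1.27 ± 0.14 for Myl1 (edgeR FDR 1.54e-05) and -1.27 ± 0.13 for Mylpf (edgeR FDR 1.05e-05). Fast myosin binding protein C (Mybpc2), which stabilizes the thick filament, was at 6487, 6013 and 8360.1 CPM in no tumor, 6991, 6652, 6267 and 5914 CPM in KPC and 7995, 7379, 9134 and 7758 CPM in KPC IL6KO. KPC overlapped no tumor and lay below KPC IL6KO (log2 FC -0.11 ± 0.14, edgeR FDR 0.507). The other direction was shown by Myom1, which encodes myomesin 1, a cross-linker of myosin in the M-band. It was at 1349, 1274 and 1611 CPM in no tumor, 3679, 3240.4, 2707 and 3003 CPM in KPC and 1694, 1579.8, 2131 and 1988 CPM in KPC IL6KO. The KPC values were higher than all others (log2 FC 1.16 ± 0.15, edgeR FDR 5.12e-05). Its relatives were not called. Myom2 had a log2 FC of -0.16 ± 0.16 (edgeR FDR 0.366), and Myom3, with 6.02 to 55.4 CPM over the no tumor and KPC libraries, one of -0.83 ± 0.50 (edgeR FDR 0.156). Titin (Ttn), the largest protein of the sarcomere, was at 9223 ± 755 CPM (SD, n = 3) in no tumor and 7262 ± 1607 CPM (SD, n = 4) in KPC and was not called (log2 FC -0.34 ± 0.16, edgeR FDR 0.0805).

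Of the 16 thin filament genes, 8 were called down in KPC, 1 was called up and 7 were not called, with a median log2 FC of -0.26. Beside these counts, 29% of all genes were called down and 26.7% up. Cardiac α-actin (Actc1, chromosome 2, 114047282 to 114053548, - strand), the actin of heart and of developing skeletal muscle, was at 1165, 540.4 and 876 CPM in no tumor, 83.4, 55.7, 35.5 and 44.5 CPM in KPC and 888, 785, 532 and 419 CPM in KPC IL6KO. All 4 KPC values lay far below every other value (log2 FC -3.97 ± 0.36, edgeR FDR 4.76e-06, an FC of 15.7 downward). The heart muscle markers Myh6 and Tnnt2 were not called in this comparison, with a log2 FC of -0.94 (edgeR FDR 0.167) and 0.40 (edgeR FDR 0.407). The 4 markers of regenerating or newly formed fibers were mixed. Myod1 was called down (log2 FC -2.93, edgeR FDR 3.37e-05), Myog was called up (log2 FC 1.74, edgeR FDR 0.0305), and Myh3 and Myh8 were not called. Acta1, the main actin of adult skeletal muscle, was at 33962, 32301 and 39503 CPM in no tumor, 22956, 23531, 17694 and 23221 CPM in KPC and 45350.5, 41145, 41334 and 42840.0 CPM in KPC IL6KO. Here too KPC lay below the other groups, by a smaller FC of 1.61 (log2 FC -0.69 ± 0.14, edgeR FDR 8.33e-04). Both actins are nearly identical proteins, and only uniquely mapped reads were counted. Whether reads were lost to similarity between the pair was not tested.
The window before the Actc1 start (chr2:114052876-114053125, minus strand), which lies in an intron of a longer annotated Actc1 transcript and ends within the annotated first exon of the main one, held a CArG box, the site bound by serum response factor:
Actc1: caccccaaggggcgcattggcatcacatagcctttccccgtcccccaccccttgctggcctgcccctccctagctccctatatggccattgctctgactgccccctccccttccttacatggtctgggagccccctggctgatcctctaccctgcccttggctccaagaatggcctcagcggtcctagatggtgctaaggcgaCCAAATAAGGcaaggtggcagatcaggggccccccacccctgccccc

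The leiomodins, which nucleate and lengthen actin filaments from their pointed ends, moved in opposite directions in KPC. Lmod2 (chromosome 6, 24597762 to 24605414, + strand) was at 111, 126 and 80.4 CPM in no tumor, 385, 384, 495 and 614 CPM in KPC and 79.9, 136, 146 and 117 CPM in KPC IL6KO. Every KPC value was above every other value (log2 FC 2.15 ± 0.25, edgeR FDR 2.15e-05, an FC of 4.43). Lmod3 was at 155, 136 and 123 CPM in no tumor, 53.3, 74.1, 22 and 30.9 CPM in KPC and 142, 157, 103 and 102 CPM in KPC IL6KO, and every KPC value was below every other value (log2 FC -1.61 ± 0.34, edgeR FDR 0.00122). The tropomodulins, which cap the same filament ends, both fell, with a log2 FC of -1.08 ± 0.21 for Tmod1 (edgeR FDR 6.38e-04) and -0.91 ± 0.17 for the skeletal muscle form Tmod4 (edgeR FDR 4.97e-04). Lmod2 therefore was the only one of these 4 pointed-end genes called up in KPC.
The window before the Lmod2 start (chr6:24597521-24597770, plus strand) held none of the 4 capitalized motifs:
Lmod2: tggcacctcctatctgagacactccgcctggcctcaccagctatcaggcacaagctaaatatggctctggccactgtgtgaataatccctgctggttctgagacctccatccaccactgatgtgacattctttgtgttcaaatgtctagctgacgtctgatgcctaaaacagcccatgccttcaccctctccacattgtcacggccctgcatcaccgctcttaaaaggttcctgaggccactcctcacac

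The troponin complex of fast fibers did not change as a unit. Fast troponin C (Tnnc2), the calcium sensor, was at 9946, 9571 and 11130.3 CPM in no tumor, 5762, 6456, 5538 and 5790.3 CPM in KPC and 11222, 11439, 10551 and 10826 CPM in KPC IL6KO, and the KPC values lay far below the rest (log2 FC -0.80 ± 0.11, edgeR FDR 6.35e-05). Fast troponin T (Tnnt3), which ties the complex to tropomyosin, was at 20524, 19746 and 25235 CPM in no tumor, 26534, 23808, 25646 and 22872 CPM in KPC and 24131, 24213, 24727 and 24105 CPM in KPC IL6KO. Fast troponin I (Tnni2), the inhibitory subunit, was at 9271, 8749 and 10265 CPM in no tumor, 11863, 10727, 10809 and 9842 CPM in KPC and 9935, 10167, 10376 and 10345 CPM in KPC IL6KO. For Tnnt3 and Tnni2 the KPC values overlapped no tumor, and neither gene was called. The log2 FC was 0.18 ± 0.12 for Tnnt3 (edgeR FDR 0.214) and 0.20 ± 0.11 for Tnni2 (edgeR FDR 0.134). With library totals in place of TMM these became -0.020 and -0.0042. Tropomyosin 1 (Tpm1), the α-tropomyosin of fast fibers, was at 16493, 16398 and 24577 CPM in no tumor, 8752, 10613, 8167 and 8719 CPM in KPC and 21640.4, 20222, 21437 and 20650.2 CPM in KPC IL6KO, a fall in all 4 KPC libraries (log2 FC -1.08 ± 0.16, edgeR FDR 1.09e-04). Tpm2, β-tropomyosin, was at 7413 ± 464 CPM (SD, n = 3) in no tumor and fell to 4714 ± 865 CPM (SD, n = 4) in KPC (log2 FC -0.65 ± 0.17, edgeR FDR 0.00443). Without KPC 3 its log2 FC of -0.55 was short of the FC limit (edgeR FDR 0.00717). Tpm1 and Tpm2 are also made by smooth muscle, whose 6 markers were called down in KPC, and the part of that in these values was not tested. Nebulin (Neb), the giant protein that lies along the thin filament, was at 4965, 4634 and 5231 CPM in no tumor and 6711, 5376, 4529.7 and 4956 CPM in KPC, with overlapping groups (log2 FC 0.13 ± 0.14, edgeR FDR 0.439).

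Of the 11 genes of the Z-disc and intermediate filaments, 3 were called up in KPC, 3 were called down and 5 were not called, with a median log2 FC of 0.47. Both counts lie near the shares over all genes, 26.7% up and 29% down. Filamin C (Flnc, chromosome 6, 29433256 to 29461883, + strand), an actin cross-linker of the Z-disc and the cell membrane, rose most of the 38 genes. It was at 668, 716 and 705 CPM in no tumor, 5239, 4007, 5647 and 5201 CPM in KPC and 820.1, 772, 974 and 643 CPM in KPC IL6KO. The lowest KPC value was more than 4 times the highest value elsewhere, and the 3 no tumor values were within 49 CPM of each other (log2 FC 2.85 ± 0.17, edgeR FDR 7.92e-07, an FC of 7.21). Desmin (Des), the intermediate filament protein of muscle, was at 2689, 2716 and 3606 CPM in no tumor, 6414, 5475, 6866 and 5825 CPM in KPC and 3574, 3652, 4158 and 3986 CPM in KPC IL6KO. KPC was the highest group without overlap (log2 FC 1.03 ± 0.14, edgeR FDR 6.58e-05). Myotilin (Myot), which binds α-actinin and filamin C, was at 862, 827 and 923 CPM in no tumor, 1625, 1527, 1527 and 1010.5 CPM in KPC and 975, 915, 1000 and 966 CPM in KPC IL6KO, and KPC 4 stood below the other KPC libraries while still above no tumor (log2 FC 0.71 ± 0.15, edgeR FDR 0.00143).
The window before the Flnc start used here, one of 2 listed (chr6:29432903-29433152, plus strand), which is rich in G and C near its end, held none of the 4 capitalized motifs:
Flnc: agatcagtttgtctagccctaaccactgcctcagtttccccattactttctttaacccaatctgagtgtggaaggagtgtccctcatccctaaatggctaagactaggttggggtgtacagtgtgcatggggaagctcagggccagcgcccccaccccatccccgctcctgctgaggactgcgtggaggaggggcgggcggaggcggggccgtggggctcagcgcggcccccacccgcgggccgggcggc

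The genes called down at the Z-disc encode binding partners of α-actinin and filamin C. Myoz3, the gene of calsarcin 3 (chromosome 18, 60573750 to 60591788, - strand), was at 359, 349 and 385 CPM in no tumor, 42.9, 53, 17.4 and 74 CPM in KPC and 373, 389, 228 and 286 CPM in KPC IL6KO. No KPC value reached 75 CPM and no other value was below 228 CPM (log2 FC -2.96 ± 0.37, edgeR FDR 3.46e-05). Myoz1, which encodes a calsarcin of fast fibers, was at 2535, 2392 and 2904 CPM in no tumor, 1457, 1778, 1255 and 1792 CPM in KPC and 2675, 2855, 2932 and 3047 CPM in KPC IL6KO, again with KPC lowest (log2 FC -0.73 ± 0.14, edgeR FDR 6.57e-04). Ldb3, whose product ZASP binds α-actinin, was at 2111 ± 149 CPM (SD, n = 3) in no tumor and at 1152, 1112, 370.0 and 885 CPM in KPC, where KPC 3 was the lowest (log2 FC -1.26 ± 0.29, edgeR FDR 0.00241). The α-actinins themselves, the main cross-linkers of the Z-disc, were not called. Actn3, the form of fast fibers, had a log2 FC of 0.18 ± 0.15 (edgeR FDR 0.298). Actn2 was at 711, 682 and 613 CPM in no tumor and 682, 991, 918 and 1345 CPM in KPC. It passed the FDR but not the FC limit (log2 FC 0.56 ± 0.21, edgeR FDR 0.0348) and was called up with DESeq2 (log2 FC 0.60), RLE (0.60) or TMM without the muscle lists (0.59), and without KPC 1 (0.70) or KPC 3 (0.59). Telethonin (Tcap), which ties titin together at the Z-disc, was at 3169, 3434 and 3728 CPM in no tumor and 5507, 5484, 2177 and 6445 CPM in KPC. It was higher in 3 of the 4 KPC mice and lowest of all in KPC 3 (log2 FC 0.51 ± 0.28, edgeR FDR 0.12). Without KPC 3 it was called up (log2 FC 0.76, edgeR FDR 0.000105).

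**Figure D3:**
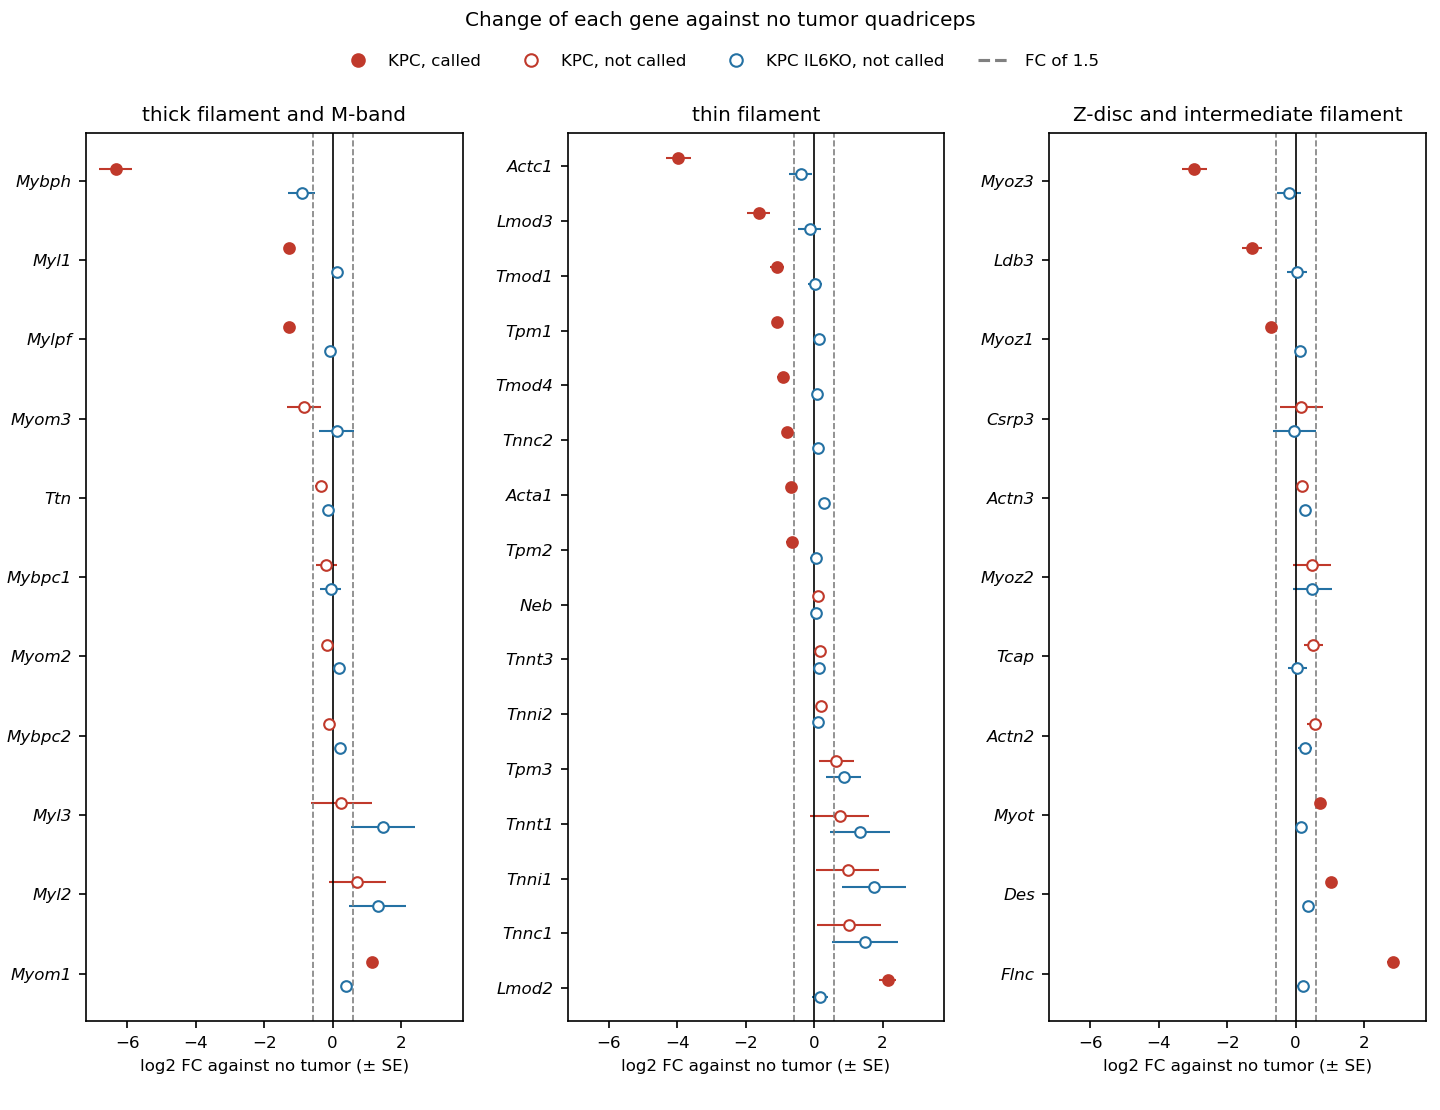
The log2 FC against no tumor (x axis, with its standard error) of the 38 genes (y axis) in KPC (red) and KPC IL6KO (blue), in panels by role, with filled points for genes called and dashed lines at an FC of 1.5. The 19 filled points are all KPC points, from -6.34 for Mybph to 2.85 for Flnc, and all blue points are open.

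Promoter windows were matched for 28 of the 38 genes. A CArG box was found in the windows of 5 of the 28, Acta1, Actc1, Myl3, Ldb3 and Myom1, against 1.18% of the 9757 genes with a window. Of these 5, Acta1, Actc1 and Ldb3 were called down in KPC, Myom1 was called up and Myl3 was not called. A MEF2 site was found in 3 of the 28, Ttn, Myoz2 and Myom3, none of which was called, against 1.83% of all windows. An M-CAT box was found in 8 of the 28 and in 10.6% of all windows, a TATA box in 4 and in 6.57%, and an E-box, CANNTG, in 24 and in 57%. The FOXO site TGTTTAC was in none of the 28 and in 2.1% of all windows, and the STAT site TTCNNNGAA was in none and in 5.98%. Both strands were searched, a CArG box can hold a TATA-like stretch, and a match says only that these letters are in the window.

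Isoforms of fast fibers were called down or not called in KPC, and those of slow fibers were not called and varied widely between mice. The fast list held Actn3, Tnnt3, Tnni2, Tnnc2, Myl1, Mylpf, Mybpc2, Myoz1 and Tmod4, of which 5 were called down and 0 up, with a median log2 FC of -0.73. Among all genes 29% were called down and 26.7% up. Tpm1, named above as the α-tropomyosin of fast fibers, and the calsarcin gene Myoz3 were not in the fast list, and both were called down. The slow list held Tpm3, Tnnt1, Tnni1, Tnnc1, Myl2, Myl3, Mybpc1, Myoz2 and Csrp3, of which 0 were called, with a median log2 FC of 0.65, the value of Tpm3. Cells other than muscle fibers also use Tpm3, which had a median of 252 CPM in the fat libraries. Their part in its quadriceps values was not tested. The median of the slow list was 0.19 without KPC 4, 0.94 without KPC 2 and -0.089 with a replicate block, so its size depended on single mice and its sign on the block. The difference between the lists was not tested. Slow troponin T (Tnnt1) was at 23, 4.55 and 29.2 CPM in no tumor, 7.87, 3.61, 54.5 and 60.4 CPM in KPC and 61.9, 24.2, 55.5 and 49.7 CPM in KPC IL6KO. Slow troponin I (Tnni1) was at 12.9, 1.61 and 14.5 CPM in no tumor, 6.04, 1.8, 35.1 and 32.2 CPM in KPC and 42.8, 13.3, 40.2 and 32.7 CPM in KPC IL6KO. Slow troponin C (Tnnc1) was at 12.5, 2.04 and 17.2 CPM in no tumor, 5.28, 1.56, 36.9 and 40.8 CPM in KPC and 40.3, 12.7, 31.5 and 32.3 CPM in KPC IL6KO. In all 3 genes KPC 1, KPC 2 and no tumor 2 were low, KPC 3 and KPC 4 were high, and the groups overlapped. The slow regulatory light chain (Myl2) was at 28.1, 9.66 and 25.8 CPM in no tumor, 8.73, 3, 64.7 and 62.9 CPM in KPC and 67, 27.7, 60.6 and 55.1 CPM in KPC IL6KO. The slow essential light chain (Myl3) was at 75.3, 12 and 57.1 CPM in no tumor, 11.4, 5.79, 80.4 and 132 CPM in KPC and 165, 67, 179 and 126 CPM in KPC IL6KO. The α-tropomyosin of slow fibers (Tpm3) was at 53.5, 30.2 and 54.6 CPM in no tumor, 35.2, 23.3, 99.5 and 131 CPM in KPC and 106, 51.9, 92.3 and 86 CPM in KPC IL6KO. The same 3 libraries were lowest for these genes too. Slow myosin heavy chain (Myh7), which is not among the 38, moved alongside, at 64.2, 2.02 and 96.9 CPM in no tumor, 45.2, 6.44, 335 and 365 CPM in KPC and 251, 71.4, 232 and 211 CPM in KPC IL6KO. Its 4 lowest libraries were no tumor 2, KPC 2, KPC 1 and no tumor 1. In KPC the log2 FC of these 6 members, Myh7 aside, ran from 0.25 (Myl3) to 1.02 (Tnnc1), with standard errors from 0.51 (Tpm3) to 0.95 (Tnnc1), and the lowest edgeR FDR was 0.274 (Tpm3).

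Of the remaining slow isoforms, Mybpc1 and Csrp3 did not follow this pattern, and Myoz2 followed it in part. Slow myosin binding protein C (Mybpc1), by far the most abundant of the slow list, was at 1856, 1582 and 1000.2 CPM in no tumor, 915, 1347, 929 and 2026 CPM in KPC and 1266, 1999, 1303 and 1109 CPM in KPC IL6KO, with the highest value in KPC 4 and the lowest in KPC 1 (log2 FC -0.18 ± 0.31, edgeR FDR 0.613). Calsarcin 1 of slow fibers (Myoz2) was at 43.9, 34 and 26.1 CPM in no tumor, 10.8, 24.1, 49.5 and 108 CPM in KPC and 45.4, 40.3, 59.6 and 49.5 CPM in KPC IL6KO. The KPC values of Myoz2 spanned those of both other groups (log2 FC 0.47 ± 0.56, edgeR FDR 0.473). KPC 1 and KPC 2 were its lowest libraries and KPC 4 its highest, while no tumor 2 lay between the other no tumor libraries. Muscle LIM protein (Csrp3), a Z-disc protein of slow fibers and heart, was at 30.2 ± 8.2 CPM (SD, n = 3) in no tumor and at 4.04, 48.5, 28.2 and 55.1 CPM in KPC, lowest in KPC 1 (log2 FC 0.17 ± 0.63, edgeR FDR 0.823). Counts of the 9 slow genes were 2.62, 2.24 and 1.31% of the counts of both lists in no tumor, 1.33, 1.97, 1.93 and 3.87% in KPC and 1.94, 2.47, 1.99 and 1.7% in KPC IL6KO. The 3 ranges overlapped, and the value of KPC 4 was the highest of all. This share mostly follows Mybpc1, whose mean was 1479 of a summed 1699 CPM in no tumor and 1304 of 1622 CPM in KPC.

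A ratio of isoforms within a library does not depend on the library scaling. For Tnnt3 over Tnnt1 the log2 ratio was 9.80, 12.08 and 9.75 in no tumor, 11.72, 12.68, 8.88 and 8.56 in KPC and 8.61, 9.97, 8.80 and 8.92 in KPC IL6KO. For Tnnc2 over Tnnc1 it was 9.63, 12.19 and 9.34 in no tumor, 10.09, 12.01, 7.23 and 7.15 in KPC and 8.12, 9.82, 8.39 and 8.39 in KPC IL6KO. For Mylpf over Myl2 it was 8.55, 9.89 and 8.71 in no tumor, 9.0, 10.57, 5.83 and 6.06 in KPC and 7.28, 8.62, 7.15 and 7.32 in KPC IL6KO. In each of these pairs KPC held both the highest or near highest and the lowest ratios, so the spread within KPC was wider than the difference between group means. For Tpm1 over Tpm3 the log2 ratio was 8.27, 9.09 and 8.81 in no tumor, 7.96, 8.83, 6.36 and 6.06 in KPC and 7.67, 8.60, 7.86 and 7.91 in KPC IL6KO, and the means differed by -1.42 between KPC and no tumor. Other cells also use Tpm1 and Tpm3, and their part in this ratio was not tested. For Myoz1 over Myoz2 the log2 ratio was 5.85, 6.14 and 6.79 in no tumor, 7.07, 6.21, 4.66 and 4.05 in KPC and 5.88, 6.14, 5.62 and 5.94 in KPC IL6KO. For Mybpc2 over Mybpc1 it was 1.81, 1.93 and 3.06 in no tumor, 2.93, 2.30, 2.75 and 1.55 in KPC and 2.66, 1.88, 2.81 and 2.81 in KPC IL6KO. No pair separated any 2 groups without overlap. The mean of Tnnt3 over Tnnt1 in KPC minus that in no tumor was -0.83 without KPC 2 and 0.68 without no tumor 2, so the sign rested on single mice. The pairs Tnni2 over Tnni1 and Myl1 over Myl3 had differences of -0.45 and -0.91 with the same kind of spread.

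**Figure D4:**
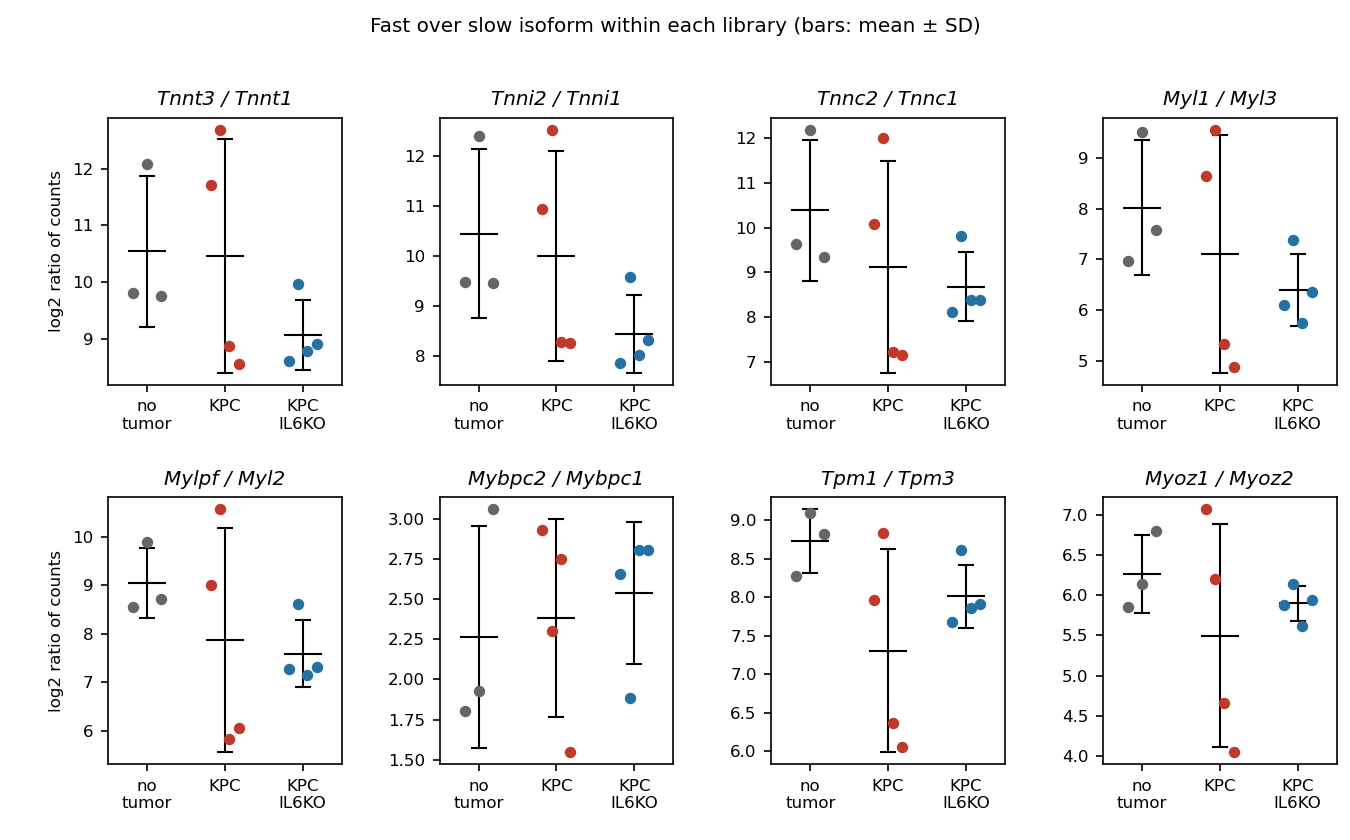
The log2 ratio of fast to slow isoform counts (y axis) in each quadriceps library, by group, for 8 isoform pairs, with bars at the mean ± SD. In KPC most pairs split into 2 high and 2 low libraries, with ratios of Tnnc2 over Tnnc1 from 7.15 to 12.01, and no pair separates the groups.

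Among abundant transcripts of the thick and thin filaments, several ratios within a library did not overlap between KPC and the other groups. These ratios were chosen after the values were seen and carry no test. The ratio of Tnnc2 to Tnnt3 was 0.485, 0.485 and 0.441 in no tumor, 0.217, 0.271, 0.216 and 0.253 in KPC and 0.465, 0.472, 0.427 and 0.449 in KPC IL6KO. The ratio of Tnni2 to Tnnt3 was 0.434 ± 0.0238 (SD, n = 3) in no tumor, 0.437 ± 0.0138 (SD, n = 4) in KPC and 0.42 ± 0.00714 (SD, n = 4) in KPC IL6KO. Tnnc2 was thus low relative to Tnnt3 in every KPC library, while the ratio of Tnni2 to Tnnt3 overlapped between all groups. Tpm1 over Tnnt3 was 0.869 ± 0.0916 in no tumor and 0.369 ± 0.0581 in KPC, and Mylpf over Mybpc2 was 1.48 ± 0.17 and 0.656 ± 0.0552. Acta1 over Actn3 was 3.31, 3.2 and 2.89 in no tumor and 1.78, 1.7, 1.31 and 2.06 in KPC. Myl1 and Mylpf, the light chains that share the myosin head, had a ratio of 0.952 ± 0.0603 in no tumor and 0.945 ± 0.0539 in KPC, which overlapped, and 1.10 ± 0.0593 in KPC IL6KO, whose values lay above all of KPC.

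**Figure D5:**
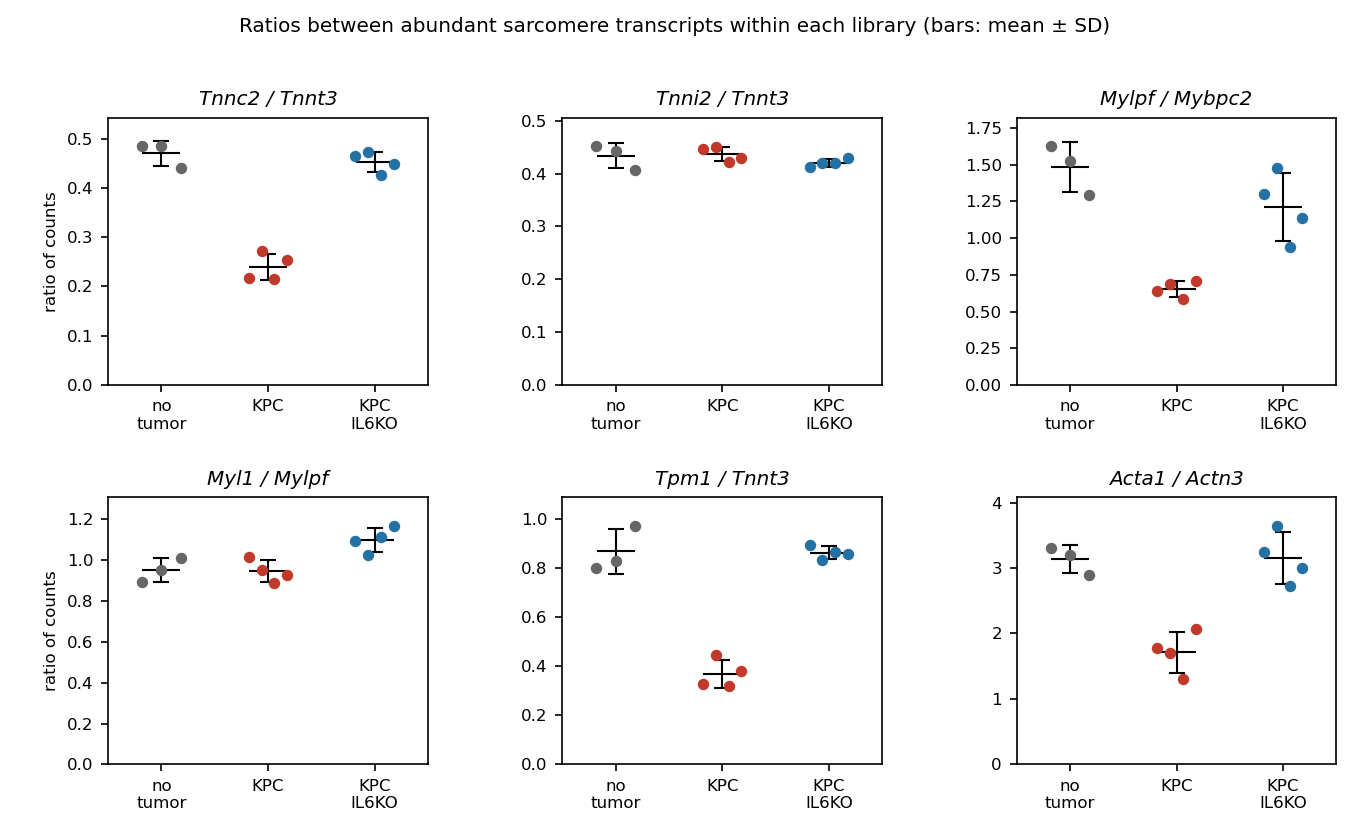
Ratio of the counts of 2 abundant transcripts (y axis, from 0) in each quadriceps library, by group, with bars at the mean ± SD. Tnnc2 over Tnnt3 lies between 0.216 and 0.271 in KPC and at 0.427 or more elsewhere, while Tnni2 over Tnnt3 overlaps between all groups.

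In KPC IL6KO quadriceps, set against no tumor, 0 of the 38 genes passed in either direction. Of all genes 0% were called up and 0% down. Over all genes 887 had an unadjusted p under 0.05 in this comparison, and DESeq2's Wald test called 30 genes up and 66 down. The likelihood ratio test of edgeR called 25 up and 70 down. The absence of calls with the quasi-likelihood test of edgeR does not show that levels were equal. Of the 38 genes 3 had an unadjusted p under 0.05. Mybph, at the levels given above, had a log2 FC of -0.90 ± 0.40 (edgeR p 0.0439, FDR 0.695), with KPC IL6KO 1 within the range of no tumor and the other 3 below it. Without KPC IL6KO 1 it was -1.36 and without no tumor 3 it was -0.44. Myom1 had a log2 FC of 0.39 ± 0.15 (edgeR p 0.0237, FDR 0.581) and Des of 0.36 ± 0.14 (edgeR p 0.0252, FDR 0.59), and in both genes the groups overlapped through no tumor 3. The values of the groups did not overlap for 1 of the 38 genes, Acta1, which was higher in KPC IL6KO (log2 FC 0.28 ± 0.14, edgeR FDR 0.788), against 15.5% of all genes. The median log2 FC over the 38 genes was 0.14, beside 0.003 over all genes. It was 0.13 over the fast list and 1.32 over the slow list, where the highest value was that of Tnni1 (log2 FC 1.76 ± 0.93, edgeR FDR 0.824). Flnc had a log2 FC of 0.20 ± 0.15 and Lmod2 of 0.18 ± 0.23 in KPC IL6KO, and Actc1 of -0.39 ± 0.34. KPC IL6KO and KPC were compared with the same no tumor libraries, so these values are set side by side without a test between the comparisons.

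Between both tumor groups, 4 of the 38 genes were higher in KPC than in KPC IL6KO, 14 were lower and 20 were not called. Here 26.4% of all genes were called up and 27.3% down. The groups did not overlap for 20 of the 38 genes, against 62% of all genes. The 14 genes lower in KPC were the 14 called down relative to no tumor, and the 4 higher, Flnc, Lmod2, Myom1 and Des, were also called up there. These comparisons share the KPC libraries. Mybph was 43.4-fold lower (log2 FC -5.44 ± 0.46, edgeR FDR 2.59e-06), Actc1 12-fold lower (log2 FC -3.58 ± 0.35, edgeR FDR 6.03e-06) and Myoz3 6.81-fold lower in KPC (log2 FC -2.77 ± 0.35, edgeR FDR 3.87e-05). Flnc was 6.26-fold higher (log2 FC 2.65 ± 0.15, edgeR FDR 5.03e-07) and Lmod2 3.92-fold higher (log2 FC 1.97 ± 0.22, edgeR FDR 1.64e-05). The smallest rises called were those of Myom1 (log2 FC 0.77 ± 0.14, edgeR FDR 4.15e-04) and Des (log2 FC 0.68 ± 0.13, edgeR FDR 6.01e-04), and with library totals the log2 FC of Des, 0.55, was short of the FC limit. Myot passed the FDR but not the FC limit (log2 FC 0.56 ± 0.14, edgeR FDR 0.00348), and it was called without no tumor 1 (log2 FC 0.59) or without KPC 4 (0.69). Tcap was called up without KPC 3 (log2 FC 0.70, edgeR FDR 9.47e-05) and Myom3 down without KPC 4 (-1.28, edgeR FDR 0.0364). Mybpc2 and Myom2 also passed the FDR below the FC limit, at log2 FC -0.32 ± 0.13, edgeR FDR 0.0426, and log2 FC -0.36 ± 0.14, edgeR FDR 0.0449. The median log2 FC was -0.53 over the 38 genes, -0.87 over the fast list, -0.47 over the slow list and -0.01 over all genes. For the slow list it was -1.0 without KPC 4, -0.14 without KPC 2 and -1.24 with a replicate block.

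Other genes of the sarcomere were read from lists written beside the 38. Of 6 skeletal myosin heavy chain genes, which encode the motor of the thick filament, 0 were called in any comparison. Myh4, the chain of the fastest fibers, was at 57848, 53096 and 69619.7 CPM in no tumor, 46649.9, 42159.6, 37066 and 42231 CPM in KPC and 64153, 59013, 59399 and 50574 CPM in KPC IL6KO, and KPC was lowest without overlap, with an FC short of the limit (log2 FC -0.52 ± 0.14, edgeR FDR 0.00691). Myh1 was at 5140.1 ± 1046 CPM (SD, n = 3) in no tumor and 6204 ± 2863 CPM (SD, n = 4) in KPC (log2 FC 0.27 ± 0.33, edgeR FDR 0.477). Myh2, the chain of fast oxidative fibers, was at 1719.8, 1515 and 747 CPM in no tumor and 90.1, 391, 188 and 1184 CPM in KPC (log2 FC -1.52 ± 0.65, edgeR FDR 0.0573), with KPC 4 within the range of no tumor. Myh7, described above, had a log2 FC of 1.80 ± 1.23 in KPC (edgeR FDR 0.212). The developmental chains Myh3 and Myh8 did not exceed 2.24 and 5.07 CPM in any library. The heavy chains together took 7.12, 6.74 and 7.54% of all counts in no tumor and 4.31, 4.84, 3.93 and 5.18% in KPC.

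Of 20 other Z-disc and M-band genes, 7 were called up and 8 down in KPC when set against no tumor, and 7 up and 10 down against KPC IL6KO. KPC IL6KO had 0 such calls against no tumor. For this list and the assembly list below, the shares called in KPC over all genes were 26.7% up and 29% down against no tumor. Against KPC IL6KO they were 26.4% up and 27.3% down. The highest log2 FC in KPC was that of Ankrd2, a muscle ankyrin repeat protein known to respond to stretch, at 68, 73.7 and 70.3 CPM in no tumor, 526, 230.3, 646 and 1075 CPM in KPC and 78.4, 95.1, 130.5 and 81.1 CPM in KPC IL6KO (log2 FC 3.13 ± 0.42, edgeR FDR 6.17e-05). The lowest was that of Synpo2, which encodes the actin-bundling protein myopodin, at 479 ± 39.3 CPM (SD, n = 3) in no tumor and 78.7 ± 30.6 CPM (SD, n = 4) in KPC (log2 FC -2.61 ± 0.24, edgeR FDR 4.54e-06). Ankrd23, the gene of this list with the highest mean over all 11 libraries, was not called (log2 FC 0.11 ± 0.15, edgeR FDR 0.534). Of 14 genes for sarcomere assembly, 4 were called up and 2 down in KPC when set against no tumor, and 5 up and 3 down against KPC IL6KO, with 0 calls in KPC IL6KO against no tumor. Hspb7, a small heat shock protein that binds filamin C, had the highest log2 FC of this list, at 218 ± 22.1 CPM (SD, n = 3) in no tumor and 1707 ± 632 CPM (SD, n = 4) in KPC (log2 FC 2.97 ± 0.28, edgeR FDR 6.10e-06). Smyd1, a methyltransferase that acts in myosin assembly, fell most (log2 FC -1.14 ± 0.21, edgeR FDR 4.66e-04). Mylk2, the kinase of the fast regulatory light chain and the most abundant gene of the list, rose (log2 FC 1.22 ± 0.21, edgeR FDR 3.49e-04).

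Of 13 genes for transcription factors of muscle and their coactivators, 5 were called up and 4 down in KPC when set against no tumor, and 3 up and 5 down against KPC IL6KO, with 0 calls in KPC IL6KO against no tumor. Over all genes, KPC had 26.7% up and 29% down against no tumor, and 26.4% up and 27.3% down against KPC IL6KO. Mkl1, a coactivator of serum response factor that is regulated by actin, fell most, from 46.8, 52.7 and 54.1 CPM in no tumor to 3.53, 4.38, 3.93 and 3.82 CPM in KPC, with 53, 51, 21.2 and 35.9 CPM in KPC IL6KO (log2 FC -3.71 ± 0.26, edgeR FDR 1.37e-06). Tead4 rose most (log2 FC 1.93 ± 0.37, edgeR FDR 6.66e-04) and Tead1, the gene of the list with the highest mean over all 11 libraries, also rose (log2 FC 0.81 ± 0.19, edgeR FDR 0.00296). TEAD factors bind the M-CAT box. Srf and Mef2c, whose products bind the CArG box and the MEF2 site, are named after their values were seen. Srf was at 116 ± 3.55 CPM (SD, n = 3) in no tumor and fell to 61.3 ± 8.17 CPM (SD, n = 4) in KPC (log2 FC -0.92 ± 0.11, edgeR FDR 2.54e-05). Mef2c fell from 351 ± 39.5 to 60.3 ± 20.4 CPM (log2 FC -2.54 ± 0.22, edgeR FDR 3.16e-06). In KPC IL6KO Srf and Mef2c were at 125 ± 6.52 and 377 ± 36.8 CPM (SD, n = 4). Mef2a and Mef2d, also named after their values were seen, went the other way and were called up in KPC relative to no tumor. The log2 FC was 0.81 ± 0.17 for Mef2a (edgeR FDR 0.00111) and 0.64 ± 0.15 for Mef2d (edgeR FDR 0.00264). Whether any of these factors bears on the 38 genes was not tested.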

How the data were processed

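The authors aligned paired reads with STAR to the mouse genome (mm10), assigned uniquely mapped reads to genes with featureCounts 1.5.1 (per the labels) and deposited raw counts per gene, 1 table per tissue, without normalization. Quadriceps was sequenced in 11 libraries and fat in 12, 1 mouse each, and groups were read from the sample titles. A further no tumor quadriceps, left out by the authors because it stood apart, was not analysed here. The study's methods and the sample records name different library kits. Isoforms of 1 gene are merged in these counts.

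Counts were analysed in R 4.3.3 with edgeR 4.0.16 (TMM, filterByExpr, which removed 0 genes, and the quasi-likelihood test with all 3 groups in 1 fit, Benjamini-Hochberg over 12831 genes). The dispersion shared by all genes was 0.0517, which equals a spread of 22.7% (CV) among mice of a group, pooled over the 3 groups. CPM limits from 3 counts cover counting error only. The steps were tested on simulated data. Alternatives were DESeq2 1.42.0, the likelihood ratio test, other scalings and filters, only the groups compared, a replicate block and leaving out each library. Libraries of a group were checked for duplicates, and the lowest chi-square per degree of freedom was 28.9. By pair of libraries it was 28.9 to 38.6 in no tumor, 138 to 331 in KPC and 35.8 to 78.0 in KPC IL6KO. This measure also grows with the counts. KPC libraries differed most from each other by it, so the pooled spread need not hold in each group. Gene positions and exon lengths are from GENCODE vM21 (GRCm38), promoter sequences from RefSeq (GRCm38.p6), and figures were drawn with matplotlib 3.10.9.

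The 38 genes and all lists were chosen with earlier results of these data known, so no list was tested and no p was adjusted over a list. All 38 genes may be named. Values per library are given for the members of the isoform pairs and the 5 highest and 5 lowest log2 FC in KPC relative to no tumor, and for KPC IL6KO the genes with an unadjusted p under 0.05. Of each other list the gene with the highest level and the highest and lowest log2 FC are named, with all 6 myosin heavy chains.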

Additional observations from a re-analysis of the deposited data

Results flagged for a closer look

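Of 94 values of the 38 genes and the isoform pairs that were examined in groups of 4 mice, 8 had 1 library farther from the other 3 than Dixon's 95% limit for 4 samples allows. Chance flags about 1 in 20 groups, and the values are not independent of each other. In KPC 3, Acta1 was at 17694 CPM, where the other KPC libraries were at 22956 to 23531 CPM, and Tmod1 was at 99.6 CPM, where the others were at 192 to 200.4 CPM. In KPC 4, Myot was at 1010.5 CPM, where the others were at 1527 to 1625 CPM. In KPC IL6KO 1, Mybph was at 287 CPM, where the others were at 111 to 119.8 CPM, and in KPC IL6KO 4, Myom3 was at 24.7 CPM, where the others were at 46.8 to 51.1 CPM. KPC IL6KO 2 stood apart in 3 isoform pairs, with a log2 ratio of 9.82 for Tnnc2 over Tnnc1 (8.12 to 8.39 in the others), 8.62 for Mylpf over Myl2 (7.15 to 7.32) and 1.88 for Mybpc2 over Mybpc1 (2.66 to 2.81).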

How the results depend on the processing

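Over the 38 genes, the counts called up and down in each comparison stayed within 1.5 times their values under DESeq2's Wald test, the likelihood ratio test, RLE or library-total scaling, both low-count filters, TMM without the muscle lists, only the groups compared and the replicate block. Leaving out 1 library at a time gave 5 to 7 up and 13 to 14 down in KPC relative to no tumor, 4 to 5 up and 14 to 15 down in KPC relative to KPC IL6KO, and 0 in KPC IL6KO relative to no tumor. Library totals lowered the median of all genes by a shift of -0.20 in KPC relative to no tumor and -0.13 relative to KPC IL6KO. The fast list then had a median of -0.92 and -0.99. The log2 FC of genes that were not called turned in KPC relative to no tumor for Neb (-0.080), Actn3 (-0.0091), Tnnt3 (-0.020), Tnni2 (-0.0042) and Csrp3 (-0.0081), and relative to KPC IL6KO for Neb (-0.068), Tnnt3 (-0.11) and Tnni2 (-0.047). Tnnt3 turned there also with at least 10 counts in every library (-0.0025) and with only the groups compared (-0.011), and Myoz2 with DESeq2 (0.0047), RLE (0.0039) and TMM without the muscle lists (0.0032). Whether the replicate numbers pair the mice was not settled. Deviations were correlated above 0.1 in 2 of 10 same-numbered pairs, and pairs with unlike numbers were not examined for reference. With a replicate block, Myl2 (-0.11), Myl3 (-0.55), Myoz2 (-0.21) and Csrp3 (-0.089) turned relative to no tumor and Csrp3 (-0.038) relative to KPC IL6KO, and Tnni1 (-1.39) and Myl3 (-2.0) were called in the latter. Without the 10 other genes with most counts, the 38 genes took 23.6%, 16.4% and 25.1% of the counts in no tumor, KPC and KPC IL6KO. The causes were not tested.

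Leaving out single libraries turned the sign of genes that were not called. In KPC relative to no tumor the lowest and highest log2 FC were -0.56 and 0.77 for Myl3, -0.48 and 0.039 for Mybpc1, -0.20 and 0.047 for Mybpc2, -0.31 and 0.80 for Myoz2 and -0.17 and 0.54 for Csrp3. Relative to KPC IL6KO they were -0.058 and 0.14 for Neb, -0.67 and 0.074 for Tpm3, -0.011 and 0.060 for Tnnt3, -0.42 and 0.089 for Mybpc1, -0.79 and 0.32 for Myoz2 and -0.13 and 0.58 for Csrp3. The median of the slow list in KPC IL6KO relative to no tumor was 0.88 without no tumor 2 and 1.53 without KPC IL6KO 2.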

Other observations

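The epididymal fat pads of 12 other mice, 4 per group, were sequenced apart from muscle, and 30 of the 38 genes were in that table of 16962 genes. The 30 genes together took 0.0567% to 0.572% of the counts of a fat library, and no comparison was made with muscle. Genes that cells other than muscle fibers also use led there, with a median over the 12 libraries of 316 CPM for Tpm1, 252 CPM for Tpm3 and 48.1 CPM for Tpm2. The genes of the fast list had medians from 0.325 CPM (Myoz1) to 6.95 CPM (Myl1). Among them were Tnnt3 at 0.581 CPM, Actn3 at 1.54 CPM and Mylpf at 1.55 CPM. The library KPC IL6KO 8 stood apart, with 320.6 CPM for Tnnt3, 623.6 CPM for Acta1 and 340.4 CPM for Ttn, and KPC IL6KO 7 followed with 49.3 CPM for Tnnt3 and 44.5 CPM for Ttn. All 9 genes of the fast list were measured there and summed to 7.7 to 221 CPM in the other 11 libraries and to 1297 CPM in KPC IL6KO 8.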
